A study of Homo sapiens with 4 samples.

Results

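AMPK, the energy-sensing kinase of the cell, is switched on by other kinases and acts through the proteins it phosphorylates. The 10 genes described here are STK11, CAB39, CAMKK2 and MAP3K7, which encode upstream kinases of AMPK and a scaffold of one of them, and ULK1, ACACA, ACACB, TSC2, RPTOR and TBC1D1, which encode direct targets. They were chosen by gene symbol from 44591 genes in the files, 19233 of them protein-coding. The values come from RNA-seq of untreated HaCaT, a single immortalized line of skin keratinocytes of human origin, in 4 biological replicates. All 4 replicates share that single condition, so levels were compared between genes within a replicate and no treatment effect was tested. The labels give culture with 12% fetal bovine serum at 37 °C and 5% CO2, and libraries from 1 µg of total RNA. For HaCaT culture, the methods of the paper state a lower serum percentage.

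AMPK is a complex of a catalytic α subunit with a β and a γ subunit, and the γ subunit binds AMP and ADP when ATP falls. LKB1, the product of STK11, phosphorylates the activation loop of the α subunit under energy stress, CaMKK2 does so when calcium rises, and TAK1, the product of MAP3K7, has been described as a further upstream kinase. Active AMPK slows fatty acid synthesis and mTORC1 signalling and promotes fatty acid oxidation, autophagy and glucose uptake. These steps act on proteins already made, and transcript levels do not measure phosphorylation.

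Levels are given as TPM, the counts per base of gene length scaled to 1000000 over the protein-coding genes of a library. The total count per library ranged from 17056035 to 73082279, and the deepest library was replicate 1. Replicate 1 stood apart. The share of counts in protein-coding genes was 76.1% there and 95.3% to 96.4% in replicates 2 to 4. Its Spearman correlation with each of the others over 12165 protein-coding genes with a mean TPM above 1 was 0.754 to 0.780, against 0.944 to 0.967 among replicates 2 to 4. Means of the 10 genes and differences of their pairs are therefore also given without it. The keratinocyte markers KRT5, KRT14 and TP63 had mean TPM values of 3244, 6847 and 71.2. All 8 keratinocyte markers were detected, and 6 of them were highest in replicate 1, where the summed TPM of the 8 was 28177 against 11152 to 14141 in replicates 2 to 4. KRT15, a basal keratin, had 13064 in replicate 1 and at most 1308 in the others, while SFN was lowest there. The part of these markers in the differences of replicate 1 was not tested. Of 23 markers of fibroblasts, melanocytes, immune, endothelial, fat and muscle cells, 5 had a mean TPM above 1. Their highest single value was 8.92, for CD14 in replicate 4, and TYR, PECAM1 and ADIPOQ had no count in any replicate. In RNA from whole cultures, fewer cells expressing a gene and less of its RNA per cell cannot be told apart.

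Of the 10 genes, 9 had a mean TPM above 1, and TBC1D1 lay just under that limit at 0.944. Of all protein-coding genes 63.3% passed it. CAB39 and STK11 were highest, with mean TPM values of 76.3 and 55. The place of STK11 depended on its deposited length. With the union of GENCODE 29 exons as length ACACA, at 48.7, lay above STK11, at 32.9, and in CPM, which has no length correction, ACACA was highest of the 10, at 171 against 142 for CAB39 and 77.8 for STK11. By TPM with the deposited lengths, CAB39 and STK11 were followed by ACACA, TSC2, RPTOR, CAMKK2, MAP3K7 and ULK1 between 35.6 and 16.1. ACACB at 4.12 and TBC1D1 came last. Behind the 9 detected genes stood 220 to 8360 counts per gene and library. Among the 12165 detected protein-coding genes, CAB39 stood at percentile 80.9, STK11 at 73.5, ACACA at 61.6, ULK1 at 37.9 and ACACB at 13. The median percentile of the 10 genes was 46.7, against 50 for all detected genes by construction.

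**Figure D1:**
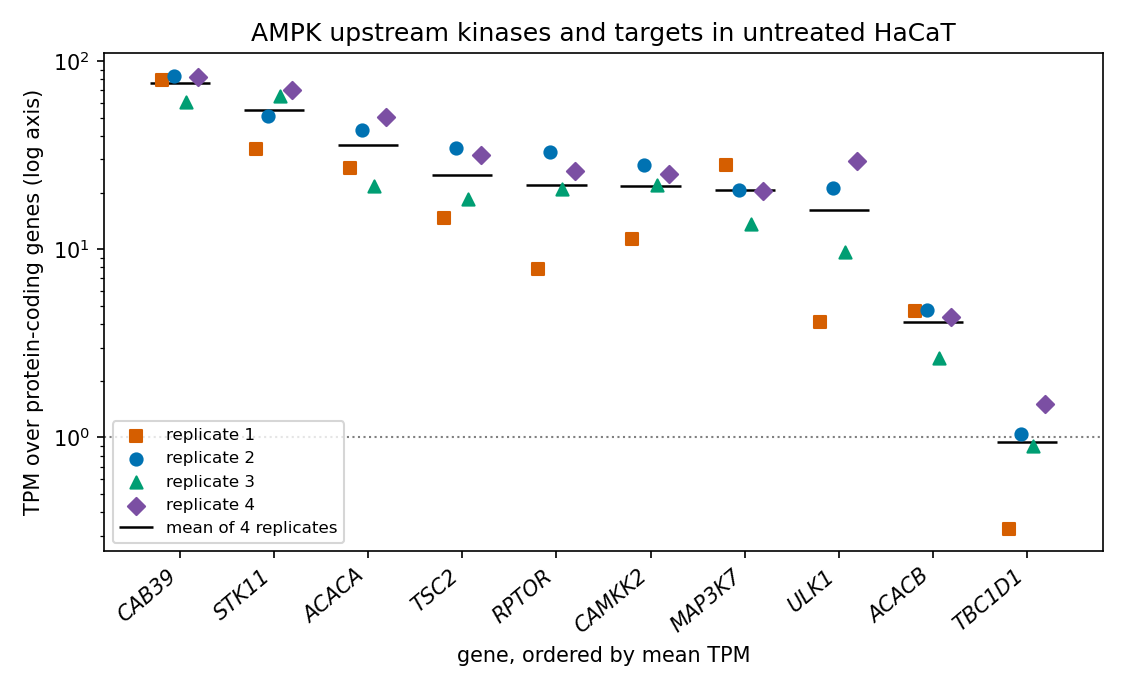
TPM over protein-coding genes (log axis) of each of the 10 genes, with 1 marker per replicate, the mean of 4 replicates as a bar and a dotted line at a TPM of 1. CAB39 and STK11 are highest by mean, TBC1D1 is lowest in every replicate, and ULK1 spreads widest, from 4.10 to 29.5.

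STK11 (gene ID 6794, chromosome 19 from 1205798 to 1228434, plus strand, on hg19) encodes LKB1, the main kinase of the AMPK activation loop. Its TPM was 33.9, 51.2, 64.8 and 70.1 from replicate 1 to replicate 4, with a mean of 55 ± 16.2 (SD, n = 4). Replicate 1 was lowest, and without it the mean was 62.1 ± 9.73 (SD, n = 3). CAMKK2 (gene ID 10645, chromosome 12 from 121675495 to 121736111, minus strand), the calcium-activated kinase, had 11.4, 28.1, 22.0 and 25, a mean of 21.6 ± 7.28 (SD, n = 4). Here too replicate 1 was the low sample, and without it the mean was 25 ± 3.06 (SD, n = 3). MAP3K7 (gene ID 6885, chromosome 6 from 91223292 to 91297020, minus strand), the cytokine-responsive kinase TAK1, had 28.1, 20.5, 13.6 and 20.4, a mean of 20.7 ± 5.93 (SD, n = 4). It was the only one of the 10 genes whose replicate 1 lay above all other replicates, as replicate 1 did for 40.2% of detected protein-coding genes. Its mean without replicate 1 was 18.2 ± 3.99 (SD, n = 3).

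STK11 exceeded CAMKK2 in 4 of 4 replicates, by 1.33 ± 0.32 (SD, n = 4) on the log2(TPM + 1) scale and by 1.27 ± 0.37 (SD, n = 3) without replicate 1. On this scale, differences of low genes are understated. An exact permutation test that flips signs (two-sided) gave p = 0.13, the smallest that 4 replicates allow, and 0.22 after Benjamini-Hochberg adjustment over the 7 pairs compared. The counts per kilobase of STK11 were 2.99 times those of CAMKK2 in replicate 1 (95% Clopper-Pearson interval 2.81 to 3.18), 1.82 times in replicate 2 (1.68 to 1.98), 2.95 times in replicate 3 (2.74 to 3.17) and 2.81 times in replicate 4 (2.60 to 3.03). The interval of replicate 2 lay apart from the other intervals, which overlapped one another. The intervals cover counting error alone, not the spread between cultures or libraries. Reads that carry no molecular identifier may be copies of 1 molecule, so the intervals may be too narrow even for counting error. The size of the difference depended on the length assigned to STK11. The union of GENCODE 29 exons gives STK11 8639 bases in place of the deposited 3276, and the difference then came to 0.12 ± 0.33 (SD, n = 4), smaller than the spread between replicates. Without any length correction it came to 0.43 ± 0.33 (SD, n = 4).

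Against MAP3K7, STK11 was also higher in 4 of 4 replicates, by 1.36 ± 0.82 (SD, n = 4; exact sign-flip permutation test, p = 0.13). Per kilobase, replicate 1 had 1.21 times as many counts of STK11 (1.15 to 1.27). This ratio was 2.5 (2.27 to 2.75) for replicate 2, 4.78 (4.37 to 5.24) for replicate 3 and 3.43 (3.15 to 3.74) for replicate 4. No pair of these intervals overlapped. Without replicate 1 the log2 difference was 1.73 ± 0.45 (SD, n = 3). With all GENCODE 29 exons as length the difference was 0.47 ± 0.82 (SD, n = 4), again smaller than the spread, and with no length correction 0.74 ± 0.83 (SD, n = 4). CAMKK2 and MAP3K7 had no steady order. CAMKK2 had 0.405 times the counts per kilobase of MAP3K7 in replicate 1 (0.382 to 0.429), and 1.37 (1.25 to 1.51), 1.62 (1.47 to 1.79) and 1.22 (1.12 to 1.34) times in replicates 2 to 4. The mean difference was 0.03 ± 0.86 (SD, n = 4; exact sign-flip permutation test, p = 1), and 0.46 ± 0.19 (SD, n = 3) without replicate 1. STK11 made up 34.4% to 52.7% of the summed TPM of STK11, CAMKK2, CAMKK1 and MAP3K7 in single replicates. CAMKK1, the paralog of CAMKK2, was present at 25.7 ± 4.06 (SD, n = 4), and CAMKK2 took 31% of their sum in replicate 1 and 47.1% to 51.6% in replicates 2 to 4.

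CAB39 (gene ID 51719, chromosome 2 from 231577557 to 231685790, plus strand) encodes MO25α, the scaffold that holds LKB1 in its active complex with a STRAD pseudokinase. Its TPM was 79.3, 83.6, 60.2 and 82.2 from replicate 1 to replicate 4, with a mean of 76.3 ± 10.9 (SD, n = 4). Replicate 3 was the low sample and the other replicates were close together, and without replicate 1 the mean was 75.3 ± 13.1 (SD, n = 3). The highest value was 1.39 times the lowest, the smallest such ratio of the 10 genes. CAB39L, its paralog, had 3.17 ± 1.01 (SD, n = 4), so that CAB39 took 94.5% to 96.6% of their summed TPM. STK11 was below CAB39 in 3 of 4 replicates, with a difference of -0.50 ± 0.57 (SD, n = 4; exact sign-flip permutation test, p = 0.25), and above it in replicate 3, at 1.08 times the counts per kilobase (1.01 to 1.14). With all GENCODE 29 exons as length this difference was -1.58 ± 0.56 (SD, n = 4), and without replicate 1 it was -0.27 ± 0.40 (SD, n = 3). The STRAD genes lay lower, with 11.6 ± 2.30 for STRADA and 17.8 ± 2.27 for STRADB (SD, n = 4). The TAK1 partners TAB1, TAB2 and TAB3 had 28.7, 37.0 and 19.6 TPM on average.

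ACACA and ACACB encode the acetyl-CoA carboxylases, which make malonyl-CoA and are inhibited when AMPK phosphorylates them. The enzyme of ACACA is cytosolic and feeds fatty acid synthesis, while that of ACACB sits at the mitochondrial surface, where malonyl-CoA restrains the uptake of fatty acids. Because they are paralogs, their transcripts were compared for shared sequence that could blur the counting. The longest run shared exactly by the coding sequences of ACACA-237 and ACACB-201 in GENCODE 29 (GRCh38) was 23 bases, from base 1828 to 1850 of 7149 and from base 2146 to 2168 of 7374. It is shown in capitals, 5′ to 3′ on the transcript strand, with the neighbouring bases in lower case:
ACACA: tcaAACATGGTGGTGGCTTTGAAGGAgct
ACACB: tcgAACATGGTGGTGGCTTTGAAGGAact
No run of 31 bases of ACACA-237 was found in a transcript of any other gene. Of the runs of ACACB-201, 0.911% were found in transcripts of other genes, none of them in ACACA-237.

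ACACA (gene ID 31, chromosome 17 from 35441927 to 35766902, minus strand) had a TPM of 27.0, 42.8, 21.7 and 50.7, with a mean of 35.6 ± 13.5 (SD, n = 4). Replicates 2 and 4 were high and replicates 1 and 3 low. ACACB (gene ID 32, chromosome 12 from 109577202 to 109706031, plus strand) had 4.72, 4.75, 2.65 and 4.38, a mean of 4.12 ± 0.998 (SD, n = 4). The ranges of the paralogs did not overlap. Without replicate 1 the means were 38.4 ± 15.0 for ACACA and 3.93 ± 1.12 for ACACB (SD, n = 3). ACACA exceeded ACACB in 4 of 4 replicates, by 2.78 ± 0.41 (SD, n = 4) on the log2(TPM + 1) scale (exact sign-flip permutation test, p = 0.13, adjusted 0.22), and by 2.95 ± 0.31 (SD, n = 3) without replicate 1. Per kilobase the ratio of counts was 5.73 for replicate 1 (5.37 to 6.12), 9.02 for replicate 2 (8.0 to 10.2), 8.22 for replicate 3 (7.15 to 9.48) and 11.6 for replicate 4 (10.3 to 13). Replicates 2 and 3 overlapped, and replicates 1 and 4 lay apart from them on either side. ACACA took 89.1% ± 2.90 (SD, n = 4) of the summed TPM. With the union of exons as the gene length the log2 difference was 3.23 ± 0.41 (SD, n = 4).

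TSC2 and RPTOR link AMPK to mTORC1, the growth-promoting kinase complex. TSC2 encodes tuberin, which turns off the mTORC1 activator RHEB, and RPTOR encodes raptor, the subunit that brings substrates to the complex. TSC2 (gene ID 7249, chromosome 16 from 2097896 to 2138721, plus strand) had a TPM of 14.6, 34.5, 18.4 and 31.5, a mean of 24.8 ± 9.72 (SD, n = 4). RPTOR (gene ID 57521, chromosome 17 from 78518625 to 78940173, plus strand) had 7.81, 32.7, 21 and 26.2, a mean of 21.9 ± 10.6 (SD, n = 4). Both were lowest in replicate 1 and highest in replicate 2, and without replicate 1 their means were 28.1 ± 8.55 and 26.6 ± 5.85 (SD, n = 3). The difference was 0.24 ± 0.43 (SD, n = 4; exact sign-flip permutation test, p = 0.38) and 0.05 ± 0.22 (SD, n = 3) without replicate 1, so neither gene led beyond the spread. With all GENCODE 29 exons as length, 19626 bases for TSC2 in place of 5806, the direction turned, to -0.85, and RPTOR was the higher gene, and without length correction it was 0.02 ± 0.45 (SD, n = 4). Per kilobase, TSC2 had 1.87 times the counts of RPTOR in replicate 1 (1.75 to 2.01), and 1.06 (0.980 to 1.14), 0.876 (0.805 to 0.953) and 1.2 (1.11 to 1.30) times in replicates 2 to 4. By the positions in the files, TSC2 overlaps PKD1 on the opposite strand by 11 bases. PKD1 transcripts hold 11.8% of the 31-base runs of TSC2-243, and PKD1 had 1632 to 3266 counts per library. Of the other genes, STK11, RPTOR and CAMKK2 shared 4.43%, 2.74% and 2.37% of the runs of their longest coding transcripts with other genes, and MAP3K7, ULK1 and TBC1D1 none. How reads of such stretches were assigned was not tested.

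ULK1 (gene ID 8408, chromosome 12 from 132379279 to 132407707, plus strand) encodes the kinase that starts autophagy. It varied most of the 10 genes, with a TPM of 4.10, 21.2, 9.63 and 29.5 in replicates 1 to 4 and a mean of 16.1 ± 11.4 (SD, n = 4). The highest value was 7.2 times the lowest, and the SD of its log2(TPM + 1) values, 1.15, stood at percentile 90.8 of detected genes. The counts behind these values were 520, 736, 452 and 1148, and without replicate 1 the mean was 20.1 ± 9.98 (SD, n = 3). Its paralog ULK2 had 3.68 ± 0.525 (SD, n = 4), and ULK1 took 54.9% of their sum in replicate 1 and 74.1% to 89.3% in replicates 2 to 4.

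TBC1D1 (gene ID 23216, chromosome 4 from 37892705 to 38140796, plus strand) encodes a regulator of glucose transporter traffic that is best known from muscle. It had 0.328, 1.05, 0.903 and 1.5 TPM, from 55, 48, 56 and 77 counts, a mean of 0.944 ± 0.483 (SD, n = 4) and, without replicate 1, of 1.15 ± 0.311 (SD, n = 3). It was the lowest of the 10 genes in each replicate, though every library had more than 3 counts of it, the count limit tried beside the TPM limit of 1. Its paralog TBC1D4, also an AMPK and AKT target, had 22.2 ± 4.0 (SD, n = 4), and TBC1D1 made up only 1.49% to 5.41% of their sum. ULK1 exceeded TBC1D1 in 4 of 4 replicates by 2.87 ± 0.79 (SD, n = 4; exact sign-flip permutation test, p = 0.13), and by 3.18 ± 0.61 (SD, n = 3) without replicate 1. Its counts per kilobase were 10.7 times (8.06 to 14.3) those of TBC1D1 in replicate 3 and 20.2 times (15.1 to 27.7) in replicate 2.

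**Figure D2:**
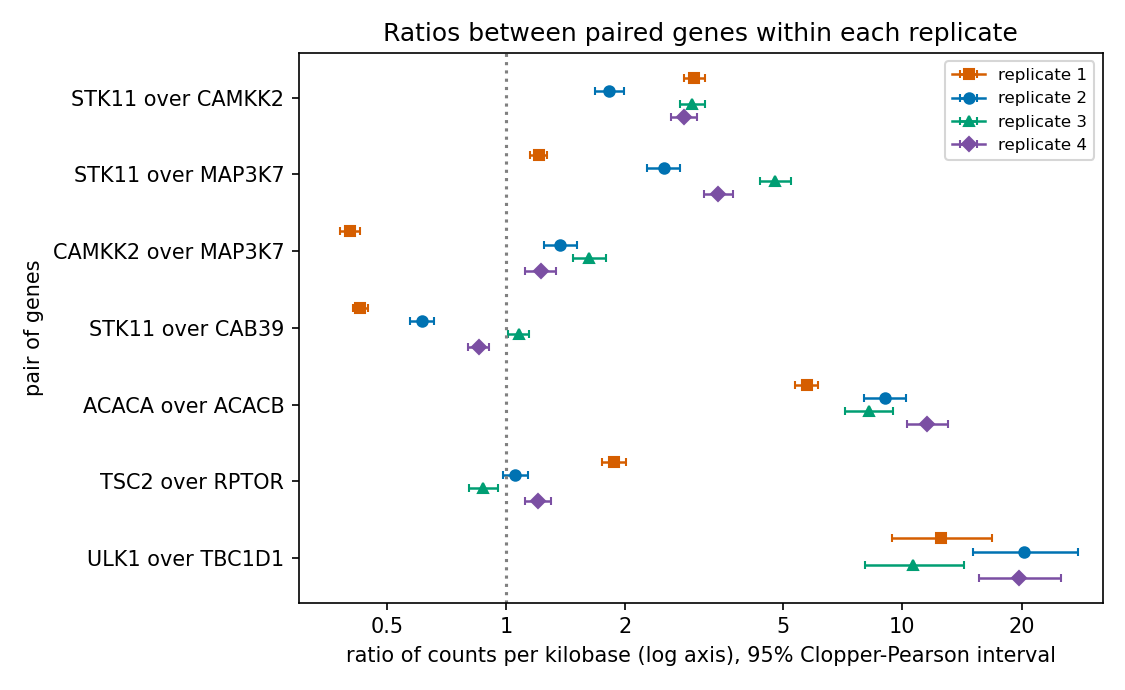
Ratio of counts per kilobase (log axis) between the genes of each of the 7 pairs, with 1 marker per replicate, 95% Clopper-Pearson intervals as bars and a dotted line at 1. ACACA exceeds ACACB at 5.73 to 11.6 times, STK11 exceeds CAMKK2 and MAP3K7 in every replicate, and CAMKK2 lies below MAP3K7 only in replicate 1.

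In the order by mean TPM, 3 neighbouring genes differed in the same direction in all 4 replicates and by more than the SD of the difference on the log2(TPM + 1) scale. STK11 was above ACACA by 0.64 ± 0.60, ACACA above TSC2 by 0.51 ± 0.29, and ACACB above TBC1D1 by 1.41 ± 0.52 (SD, n = 4 each). The first of these turned with the other gene lengths, which put the mean of ACACA above that of STK11. The other 6 neighbours could not be separated. TSC2, RPTOR, CAMKK2 and MAP3K7 traded places between replicates, and ULK1 ranked from 5 in replicate 4 to 9 in replicate 1.

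Replicate 1 was below all of replicates 2 to 4 for 6 of the 10 genes, STK11, CAMKK2, ULK1, TSC2, RPTOR and TBC1D1. Of all detected protein-coding genes 37.4% were below in this way, so such a place is common in this library. It was above the others for MAP3K7 alone, against 40.2% of detected genes. In TPM scaled over all classes of gene, all 10 genes were below, as were 80.7% of detected genes, 4.30% were above, and the median difference over genes was -1.27. On the log2(TPM + 1) scale over protein-coding genes, replicate 1 minus the average of replicates 2 to 4 was -1.92 for ULK1, -1.63 for RPTOR, -1.07 for CAMKK2, -0.85 for TSC2 and -0.84 for STK11. It was 0.62 for MAP3K7, 0.24 for ACACB and 0.09 for CAB39. The median was -0.76 over the 10 genes and 0.03 over all detected genes.

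Transcript GC content moved with this difference. Over 11889 detected genes the Spearman correlation between GC content and the difference was -0.51, and over the 10 genes it was -0.70, a description across genes of the same libraries. STK11 and ULK1 have 65.8% and 64.2% GC, TSC2 60.5% and RPTOR 59.8%, and MAP3K7 and CAB39 38.7% and 41.8%. The 2973 genes of highest GC content, from 57.4% up, had a median difference of -0.70, and the 2973 of lowest, up to 42.3%, of 0.79. With every replicate centred within 20 bins of GC content, a step chosen after seeing the data, the difference was 0.14 for STK11, -0.20 for TSC2 and -0.22 for MAP3K7. It shrank to -1.19 for ULK1, -0.95 for RPTOR and -0.65 for CAMKK2. It changed little for TBC1D1, from -0.68 to -0.60, and for ACACA, from -0.41 to -0.42. For CAB39 it went from 0.09 to -0.44 and for ACACB from 0.24 to 0.81. Replicate 1 then lay below the others for 6 of the 10 genes, MAP3K7 among them, and above for ACACB alone. The shares over detected genes with a GC content were 34.3% and 37.8%. Before centring, replicate 3 was the lowest for the 4 genes not lowest in replicate 1, CAB39, ACACA, MAP3K7 and ACACB. It was the lowest for 40.2% of all detected genes. The difference of replicate 3 from the others had a Spearman correlation of -0.42 with gene length and 0.38 with GC content over 11889 genes. Over the 10 genes these were -0.36 and 0.48. The part of these properties in single genes was not tested.

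**Figure D3:**
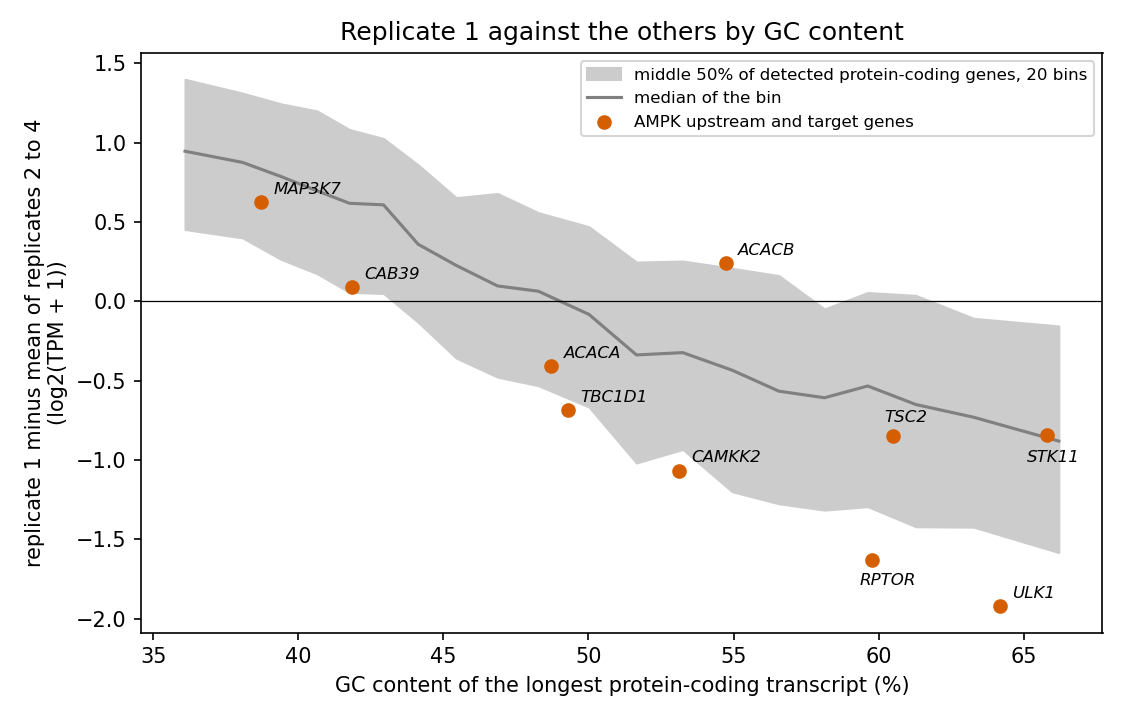
Difference of log2(TPM + 1) between replicate 1 and the mean of replicates 2 to 4 against the GC content of the longest protein-coding transcript (%), with the 10 genes as points and the median and middle 50% of detected protein-coding genes in 20 GC bins as a line and a band. ULK1 at -1.92 and RPTOR at -1.63 lie well below the band, and CAMKK2 at -1.07 and TBC1D1 at -0.68 just below it. ACACB at 0.24 lies at its upper edge, and STK11 at -0.84 lies near the median line.

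The wider pathway was read from 10 lists with 67 other genes, of which 58 had a mean TPM above 1, against 63.3% of all protein-coding genes. Replicate 1 was below the others for 28 of these 58 genes and above them for 16, beside 37.4% and 40.2% of all detected genes. AMPK itself was represented by PRKAA1, the catalytic α1 subunit, at 24.3 ± 12.5 (SD, n = 4), PRKAB1 at 20.3 ± 4.05 and PRKAB2 at 25.3 ± 12.2 for the β subunits, and PRKAG1 at 70.2 ± 22.7 and PRKAG2 at 7.53 ± 2.90 for the γ subunits. PRKAA2, the other catalytic subunit, had 0, 1, 2 and 0 counts in replicates 1 to 4, not above the count limit of 3 in any library. PRKAG3 had 54 counts in replicate 1 and 0 to 1 count in the others. Of the 7 subunit genes 5 were thus detected. PRKAA1 was 41.5 in replicate 1 and 14.3 to 25.2 in replicates 2 to 4, so it was high in the same library in which STK11 was low. Places at either end were common in replicate 1, by the shares above. After GC centring, replicate 1 lay inside the range of the others for STK11.

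Of 12 other kinases that LKB1 activates, 10 were detected. MARK3 at 75.2 ± 17.4 and MARK2 at 60.7 ± 21.6 (SD, n = 4), kinases of cell polarity and microtubules, led them. The salt-inducible kinases SIK1, SIK2 and SIK3 had 22.7, 29.7 and 24.8 on average, and BRSK1 and BRSK2, known from neurons, had at most 3 and 8 counts in a library. All 4 genes of autophagy initiation were detected. RB1CC1, which encodes the ULK1 partner FIP200, had 109 TPM in replicate 1 and 14.3 in replicate 3, ATG13 had 40.4 ± 3.32 and ATG101 92.6 ± 15.3 (SD, n = 4). ULK1 and RB1CC1 thus had their lowest values in different replicates. Of 7 genes around TSC and mTORC1, 6 were detected. RHEB, the activator that TSC2 turns off, had 93.3 ± 12.1 and MTOR 38.2 ± 7.03 (SD, n = 4). TSC1, the partner of TSC2, averaged 22.9 ± 10.5 (SD, n = 4) and peaked at 37.2 in replicate 1, where TSC2 was lowest. Of all detected genes, replicate 1 was above the others for 40.2% and below them for 37.4%. After GC centring, it lay inside the range of the others for TSC2. DEPTOR, an mTOR inhibitor, was at 0.991.

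All 10 genes of the lipid list were detected. FASN, which uses the malonyl-CoA made by the ACACA enzyme, had 26.7, 345, 155 and 719 TPM in replicates 1 to 4. ACLY, which supplies cytosolic acetyl-CoA, had 226 ± 84.0 (SD, n = 4). CPT1A, an enzyme that malonyl-CoA inhibits, was at 120 ± 27.3 (SD, n = 4). Of 8 genes of glucose handling 6 were detected. TXNIP, whose protein AMPK marks for degradation, had 573 TPM in replicate 1 and 61.3 to 152 in the others. SLC2A1, the widely expressed glucose transporter, was at 97.7 ± 33.2 (SD, n = 4), while SLC2A4, the insulin-regulated transporter of muscle and fat, was at 0.965 and GYS2, the liver glycogen synthase, had 1 count in all.

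Of 9 genes of transcriptional and other targets 8 were detected. CRTC2 led them at 48.4 ± 25.4 (SD, n = 4), with 11.3 in replicate 1 and 53.1 to 66.9 in the others, and PPARGC1A, the coactivator of mitochondrial genes, was lowest at 0.317. Of 3 phosphatase genes 2 were detected. PPP2CA, a catalytic subunit of PP2A, had 144 ± 16.4 (SD, n = 4), PPM1A 11.5 ± 5.91 (SD, n = 4) and PPM1E 0.0992.

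**Figure D4:**
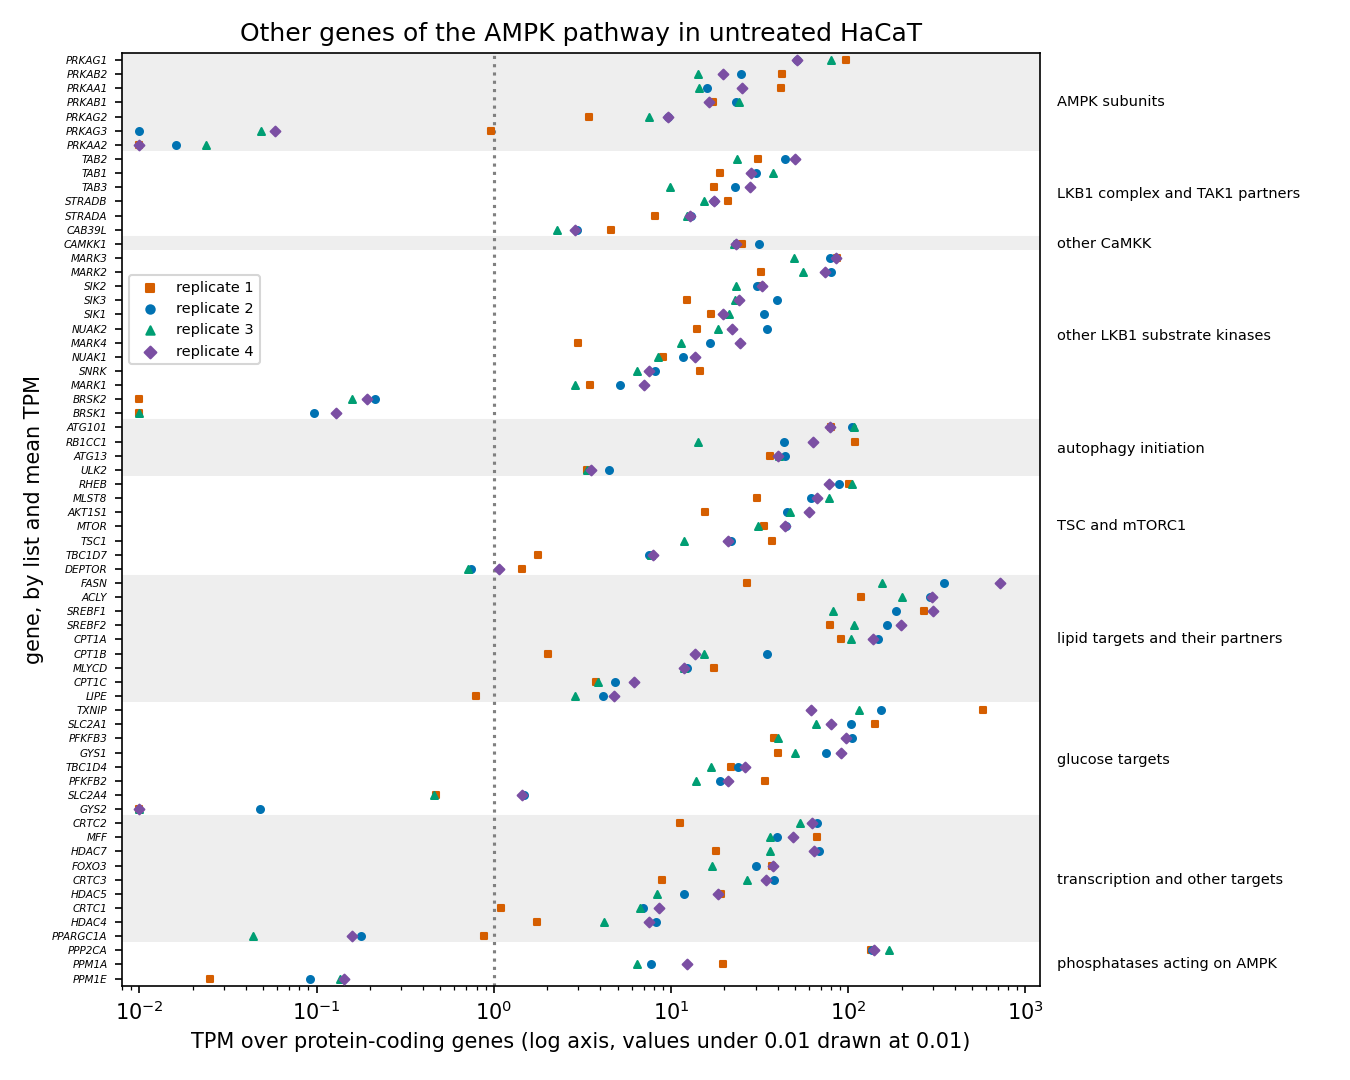
TPM over protein-coding genes (log axis) of the other pathway genes in 10 lists, 1 gene of the lipid list not drawn, with 1 marker per replicate, a dotted line at a TPM of 1 and values under 0.01 drawn at 0.01. PRKAA2, GYS2, BRSK1 and BRSK2 lie far left of the line while PRKAA1 and TBC1D4 lie right of it, and replicate 1 often stands at the edge of a gene's markers.

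Likeness of pattern was measured as the root-mean-square difference between centred log2(TPM + 1) values over the 4 replicates. The gene nearest to STK11 was PPP1R12C (0.02), to CAB39 CRKL (0.01), to MAP3K7 ORC2 (0.02), to ACACA FCHSD2 (0.02), to RPTOR WWC1 (0.02) and to ULK1 FAM20C (0.04). With 12165 detected genes and 4 values each, some gene lies close to any pattern. Among the 10 genes the pair nearest to each other was CAB39 and ACACB (0.10), and the pair farthest apart was MAP3K7 and ULK1 (1.15).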

How the data were processed

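RNA-seq of 4 biological replicates of untreated HaCaT cells was analysed. The authors deposited raw read counts per gene with a gene length for each replicate. Beside them, the authors gave RPKM in replicates 1 and 2 and TPM in replicates 3 and 4, which follow from these counts and lengths. The submitters' processing notes name hg19, HISAT2, HISAT, TopHat2 and Bowtie2. The counting program, its use of strand and the annotation are not given in the sources used here. From the counts, TPM was computed over the 19233 protein-coding genes. For 7 pairs of genes the log2(TPM + 1) difference inside each replicate entered an exact permutation test by sign flips, two-sided. Detection required a mean TPM over 1. The steps were tested on simulated data in which all 4 replicates shared the same profile apart from 200 genes changed in replicate 1. That setting was simpler than these data, where replicate 1 stood apart over many genes. GC content, exon unions and 31-base runs came from GENCODE 29 (GRCh38), with a GC content for 18684 of the 19233 genes. Scripts ran under SciPy 1.17.1, pandas 2.3.3, NumPy 2.4.6, matplotlib 3.10.9 and Python 3.11.15. The 10 genes, pairs and lists were chosen with earlier results of these data known. The rule named all 10 genes with every replicate, of each list the highest, the lowest and any paralog of the 10, and the nearest genes in pattern. Further list genes in the text were picked with their values in view. The alternatives were other scalings, pseudocounts, gene lengths, detection limits and leaving out each replicate. Protein sequences were not used here, and 1 gene of the lipid list is counted but not reported here.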

Additional observations from a re-analysis of the deposited data

Results flagged for a closer look

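In 75 sets of 4 replicate values (10 genes, 7 pair differences and 58 detected pathway genes), 5 held a replicate whose gap to its nearest neighbour passed the 95% critical value of Dixon's test. Chance gives about 1 in 20 sets, or 3.75 here. STK11 minus CAMKK2 on the log2(TPM + 1) scale came to 0.84 for replicate 2, against 1.45 to 1.52 elsewhere. STRADA had a TPM of 8.15 in replicate 1 and 12.3 to 13 in the others. ULK2 had 4.46 in replicate 2 and 3.36 to 3.52 in the others. TBC1D7, a subunit of the TSC complex, had 1.77 in replicate 1 and 7.52 to 7.95 in the others. MLYCD, the enzyme that breaks down malonyl-CoA, had 17.5 in replicate 1 and 11.9 to 12.3 in the others.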

How the results depend on the processing

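Without length correction 5 of the 10 genes, and with the union of GENCODE 29 exons 3 of 10, kept their place in the order by mean level, and 7 to 8 did when 1 replicate was left out. The difference TSC2 minus RPTOR turned to -0.85 with the exon union, which gives TSC2 19626 bases in place of 5806. CAMKK2 minus MAP3K7 ranged from -0.17 to 0.46 when 1 replicate was left out (-0.10 without replicate 2, -0.17 without replicate 3, -0.05 without replicate 4). The other 52 values of the pair differences kept their sign, not counting 14 from GC centring, added after seeing the data and unable to move a mean difference, and from scaling over all genes, which rescales the genes of a replicate alike. The median percentile of the 10 genes was 66.3 among all protein-coding genes. Replicate 1 lay below the others for 10 genes and above for 0 in TPM over all genes, beside 80.7% and 4.30% of detected genes. It lay above for 3 with median-of-ratios or upper quartile scaling, beside 40.2% and 42.9% of detected genes. Detected genes numbered 9 to 10 of the 10 and 58 to 63 of the 67 under every limit and omission tried. No paired analysis was possible because there is 1 group, so that replicate numbers pair no samples. The sign-flip test cannot reach a p under 0.05 with 4 replicates.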
